A study of Mus musculus with 39 samples.

Results

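The Vmn2r genes code for the type 2 vomeronasal receptors (V2Rs) of the mouse. The 121 members described here are the protein-coding genes of the mm10 annotation on chromosomes 1 to 19 whose symbols start with Vmn2r, out of 20807 protein-coding genes on these chromosomes. They were measured in R1 cells, a wild type line of mouse embryonic stem (ES) cells from the inner cell mass, with 4 H3.wrap-seq libraries from 2 independent experiments and with 8 libraries of replication timing (RT), made from the fractions S1 to S4 of S phase in 2 replicates. H3.wrap-seq measures the length of the DNA that histone H3 particles protect from the nuclease MNase, and the authors called from it the nucleosome wrapping domains (NRDs). The wrapping index is a z-score, so that it is relative to the mean of the genome. A TiNRD is a domain of positive index, with relatively longer fragments, and a LoNRD is a domain of negative index, with relatively shorter fragments. The authors read these as tighter and looser wrapping, and other properties of the chromatin may also affect the index. The RT fractions gave early domains, whose log2 ratio of early to late S phase fractions is positive, and late domains, whose ratio is negative. Each list holds 1 value per domain and no replicates, so that no spread between samples could be computed and no test was made. Read depth per domain is unknown.

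Type 2 vomeronasal receptors are class C G protein-coupled receptors with a large extracellular domain that binds peptides and proteins. They are expressed in basal sensory neurons of the vomeronasal organ, where they signal through the G protein subunit encoded by Gnao1 and the channel Trpc2. The genes lie in tandem clusters that arose by duplication, and most V2R neurons choose a single receptor of the large families together with a member of the small family Vmn2r1 to Vmn2r7. Their expression was not measured in the data used here, and ES cells are not a tissue in which these receptors are known to act.

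The members lay on 8 chromosomes, with 51 on chromosome 7 and 32 on chromosome 17. Genes less than 500 kb apart were taken as a cluster, which gave 19 clusters with a summed span of 12.5 Mb, 5 of them with a single member. Of the 121 members, 117 had 6 coding exons, and the median coding length was 2565 bases. The annotation calls Vmn2r-ps159 and Vmn2r-ps130 protein-coding although their names mark pseudogenes. Within a cluster the coding sequences were alike, with a median identity of 88.9% over 627 pairs (quartiles 84.8% and 92.3%), against 65.1% over 6633 pairs from different clusters (quartiles 60.2% and 67.1%). For 100 members the closest relative lay in the same cluster.

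**Figure D1:**
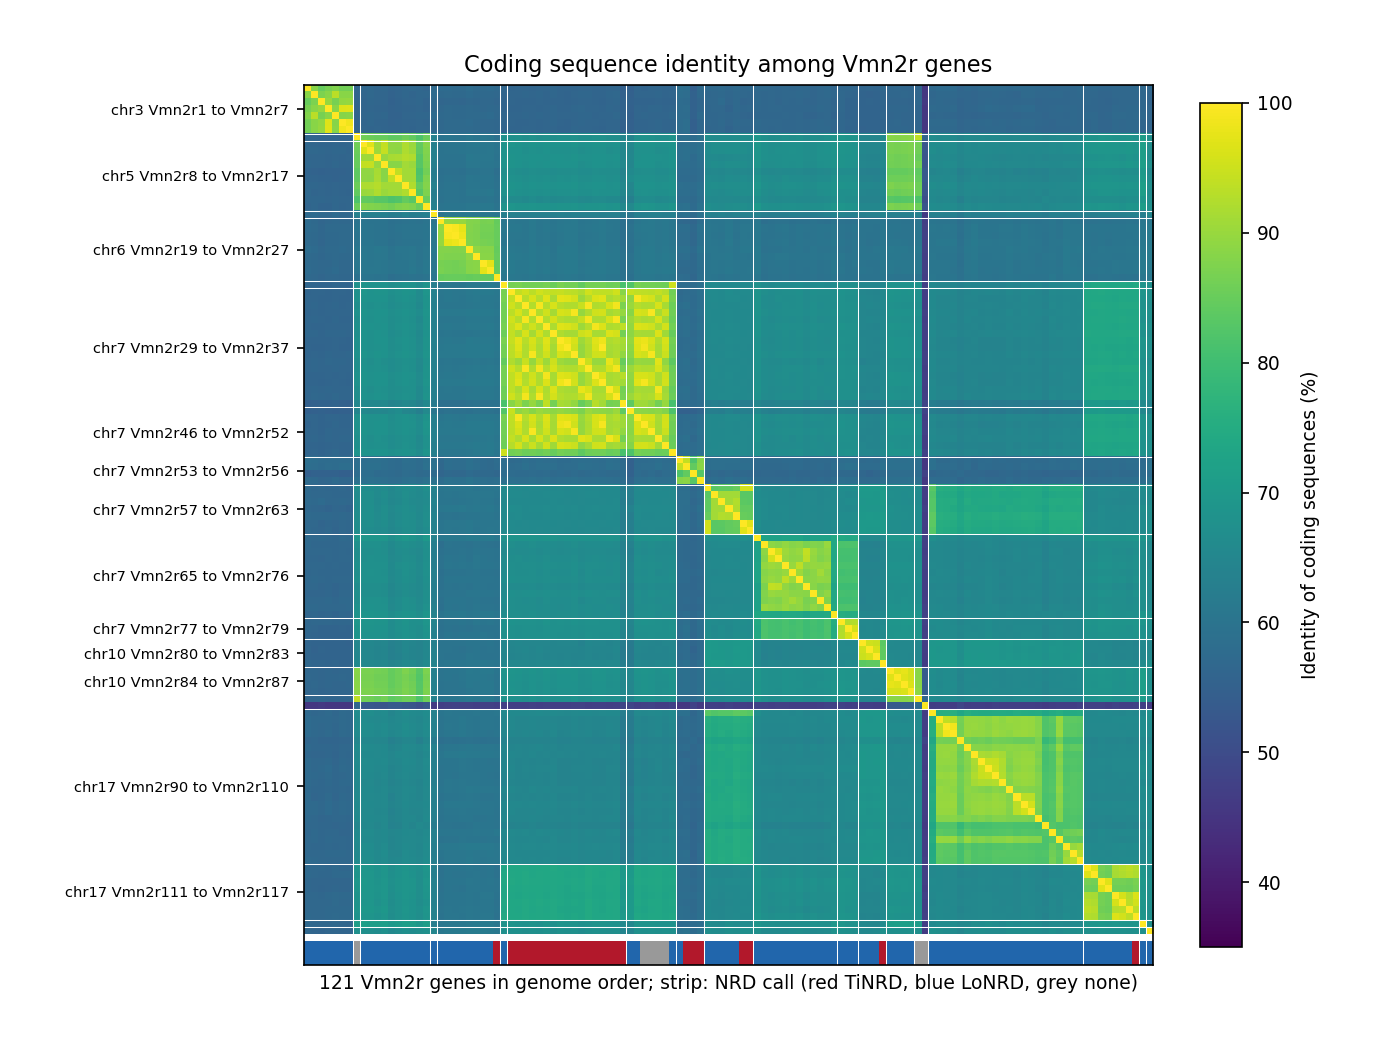
Identity of coding sequences (colour, in %) for every pair of the 121 Vmn2r genes in genome order, with white lines between clusters and a strip that gives the NRD call of each gene (red TiNRD, blue LoNRD, grey none). The blocks on the diagonal are the clusters, and the genes Vmn2r29 to Vmn2r37 and Vmn2r46 to Vmn2r52 form a single block of high identity although their NRD calls differ.

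How alike members with opposite calls can be is shown by stretches of their longest coding exon, which codes for the membrane-spanning part of the receptor. The first 240 bases of that exon are given from GRCm38 (mm10), 5′ to 3′ on the coding strand, with the bases that differ between the members of a pair in capitals. Vmn2r30 (TiNRD, minus strand, chr7:7312939-7313178) and Vmn2r47 (LoNRD, minus strand, chr7:9817447-9817686) are shown because they were the most alike pair with opposite NRD calls. They had 0 differences over these bases.
Vmn2r30: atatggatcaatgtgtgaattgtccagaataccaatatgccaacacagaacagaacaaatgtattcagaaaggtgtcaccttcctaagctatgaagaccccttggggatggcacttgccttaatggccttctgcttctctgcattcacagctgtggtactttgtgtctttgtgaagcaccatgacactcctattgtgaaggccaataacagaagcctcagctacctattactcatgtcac
Vmn2r47: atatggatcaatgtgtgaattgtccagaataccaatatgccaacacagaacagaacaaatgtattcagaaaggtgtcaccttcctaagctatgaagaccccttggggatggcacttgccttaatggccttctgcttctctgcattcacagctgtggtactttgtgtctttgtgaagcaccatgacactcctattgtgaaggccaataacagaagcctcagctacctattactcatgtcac
Over the whole coding sequence this pair differed at 16 bases (99.4% identity) and shared an unbroken identical run of 810 bases. Of all 50-base windows along the alignment 72.5% were identical, and of all 140-base windows 52.1%. Vmn2r53 (LoNRD, minus strand, chr7:12582207-12582446) and Vmn2r54 (TiNRD, minus strand, chr7:12615970-12616209) are neighbours on either side of an NRD edge, and differed at 3 of the 240 bases.
Vmn2r53: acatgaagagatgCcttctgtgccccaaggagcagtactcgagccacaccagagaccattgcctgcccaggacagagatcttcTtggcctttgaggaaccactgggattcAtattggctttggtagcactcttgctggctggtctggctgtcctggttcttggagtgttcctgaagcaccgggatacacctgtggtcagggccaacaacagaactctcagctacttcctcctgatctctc
Vmn2r54: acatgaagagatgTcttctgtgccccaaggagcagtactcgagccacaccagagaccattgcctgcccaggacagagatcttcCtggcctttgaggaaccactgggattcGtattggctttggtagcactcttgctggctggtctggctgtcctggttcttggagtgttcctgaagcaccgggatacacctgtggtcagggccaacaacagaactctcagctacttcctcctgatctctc
The midpoints of Vmn2r116 (LoNRD, plus strand, chr17:23400945-23401184) and Vmn2r117 (TiNRD, minus strand, chr17:23460355-23460594) also lie on either side of an edge, at 23400000. The gene body of Vmn2r116 spans that edge, and its printed stretch lies past it, on the TiNRD side. The stretches of this pair differed at 14 bases.
Vmn2r116: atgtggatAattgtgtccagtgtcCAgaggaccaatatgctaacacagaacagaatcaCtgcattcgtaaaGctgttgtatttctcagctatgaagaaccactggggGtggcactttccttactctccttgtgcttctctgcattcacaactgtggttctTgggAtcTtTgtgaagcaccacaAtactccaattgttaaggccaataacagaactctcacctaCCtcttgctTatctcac
Vmn2r117: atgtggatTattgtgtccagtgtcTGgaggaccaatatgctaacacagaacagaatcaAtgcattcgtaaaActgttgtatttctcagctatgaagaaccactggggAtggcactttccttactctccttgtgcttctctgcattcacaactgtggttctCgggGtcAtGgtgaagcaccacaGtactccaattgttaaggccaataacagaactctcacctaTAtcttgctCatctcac
Over the whole coding sequence the identity was 94.0% for Vmn2r53 and Vmn2r54 and 93.4% for Vmn2r116 and Vmn2r117.

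Next, the NRD calls were compared with those of all genes. By its midpoint, a Vmn2r gene lay in a LoNRD in 89 of 121 cases (73.6%), while 20.3% of all protein-coding genes did so. TiNRDs held 25 members (20.7%, against 78.6% of all genes), and 7 members lay in no NRD (5.79%, against 1.09%). The median NRD value was -0.63 over the members with a value and 0.76 over all genes. These members shared 22 NRDs, 16 LoNRDs and 6 TiNRDs, so that members of a domain have the same value and are not independent.

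Replication timing showed a like division. Late RT domains held 90 members (74.4%, against 21.4% of all genes), early ones 25 (20.7%, against 75.3%), and 6 lay in no RT domain (4.96%, against 3.26%). The median RT value was -0.72 for the members and 0.98 for all genes. Members were spread over 15 late and 12 early RT domains. When both calls were combined, 68 members (56.2%) were in a LoNRD that was also late, against 13.5% of all genes. TiNRDs with early replication held 8 members (6.61%, against 69.4%). The calls did not correspond for 32 members: 16 lay in a TiNRD but in a late RT domain (13.2%, against 7.49% of all genes), and 16 lay in a LoNRD but in an early RT domain (13.2%, against 5.33%).

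**Figure D2:**
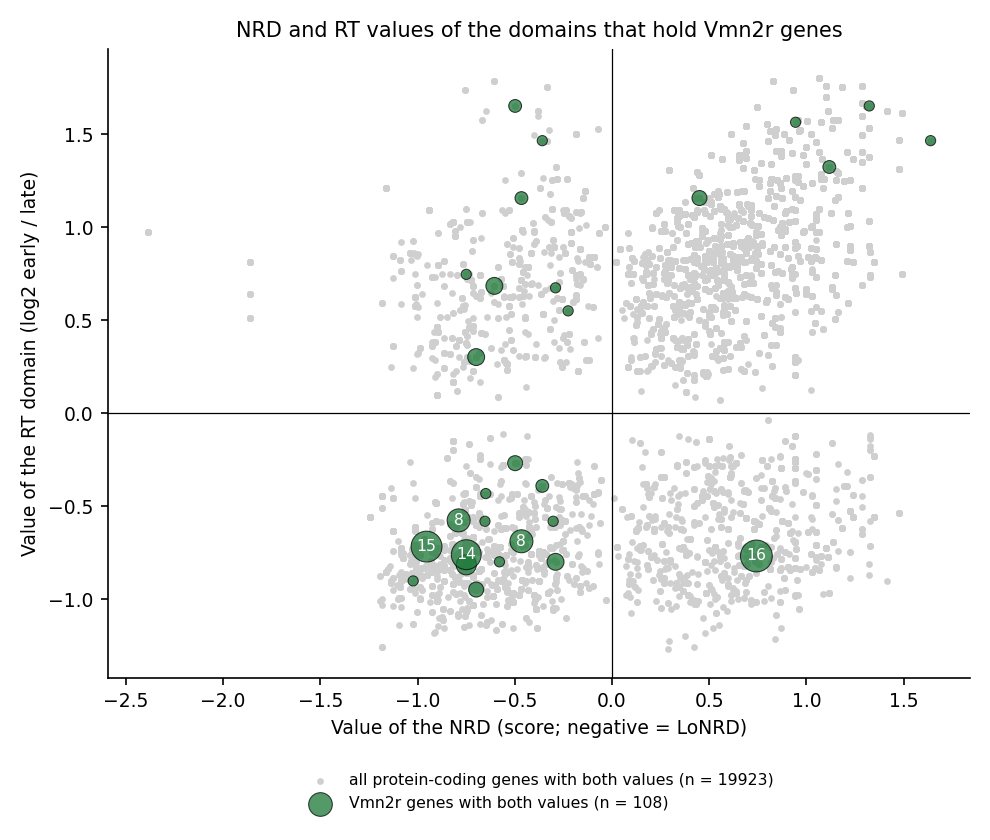
Value of the NRD (score, x axis) and of the RT domain (log2 of early over late fractions, y axis) for the 108 Vmn2r genes with both values (green, area by the number of genes at the point, with the number written from 8 genes on) over all 19923 protein-coding genes with both values (grey). Most members sit at the lower left, negative on both axes, and 16 genes of a single cluster sit at 0.74 and -0.77 at the lower right.

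All members called in a TiNRD and a late RT domain came from 1 cluster, Vmn2r29 to Vmn2r37 on chromosome 7 (7231327 to 9223653, 1992 kb, 17 members, all on the minus strand). All 17 lay in a TiNRD of value 0.74, which was rank 122 of 561 autosomal TiNRDs. For 16 of them the RT domain was late, with a value of -0.77, and Vmn2r29 lay 10.7 kb before the start of that domain, in no RT domain. The TiNRD (6000001 to 9400000) began 1231 kb before the first member, and that stretch held 30 other protein-coding genes, of which 23 were early and 0 late. From Vmn2r29 on, the TiNRD held 20 protein-coding genes, 17 of them members, and 18 were late and 0 early. A domain value thus covered an early stretch without members and a late stretch with them.

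The same cluster was the one with the least single-copy sequence. A window was counted as single-copy if its sequence occurred at a single place on chromosomes 1 to 19, X and Y, on either strand. In the cluster 13.4% of 50-base windows and 36.0% of 140-base windows were single-copy, while the median over the 19 clusters was 72.5% and 91.9%, and the median over 481 sampled autosomal windows of 100 kb was 93.6% and 98.7%. Among the sampled windows inside TiNRDs, 9 of 261 had less than 50% single-copy sequence, and inside LoNRDs 2 of 217. The 16 members with a TiNRD and a late call had between 2.57% and 27.7% of single-copy 50-base windows in their gene bodies (median 10.8%). The 68 members with a LoNRD and a late call ranged from 0.89% to 99.1% (median 87.7%), so that the ranges overlapped, with 6 of these 68 under 50%. The stretch of the TiNRD without members had 85.8% single-copy 50-base windows and the stretch with members 13.0%. The authors kept only reads above a minimum mapping quality, and how far the call in this cluster rests on the reads that can be placed was not tested.

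**Figure D3:**
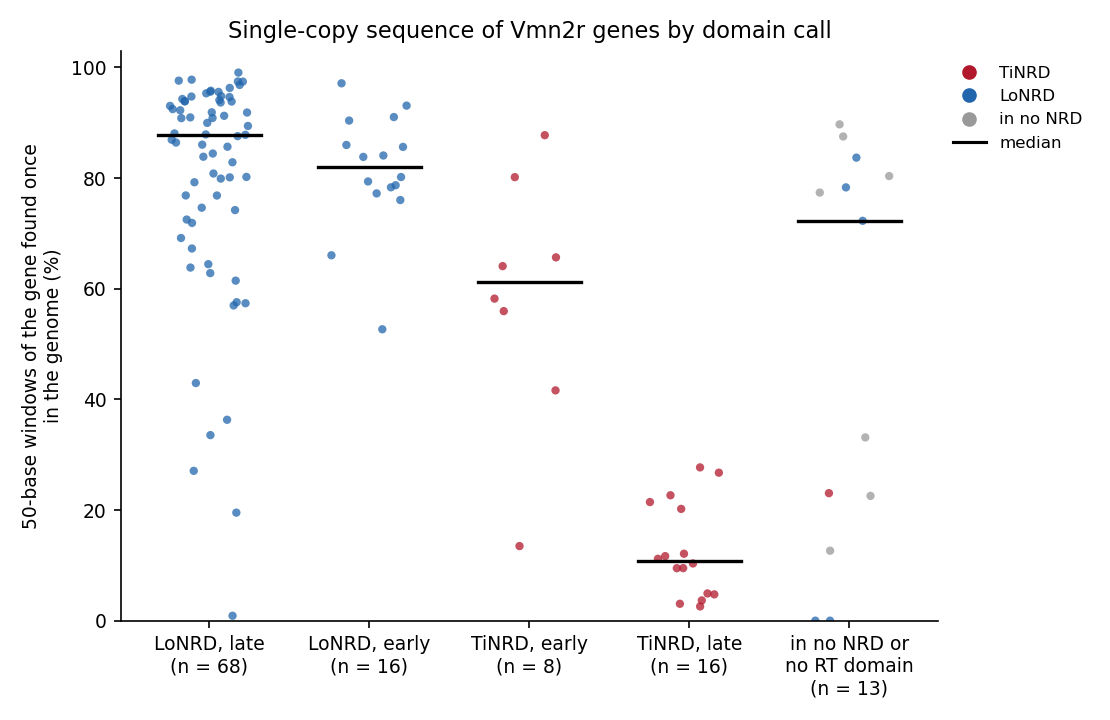
Share of 50-base windows of each Vmn2r gene that occur at a single place in the genome (%), by the NRD and RT call of the gene. Points are genes, coloured by NRD call, and bars are medians, with 16 genes of the TiNRD and late group all below 28% and most genes of the LoNRD groups above 50%.

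The neighbouring cluster, Vmn2r46 to Vmn2r52 (9747811 to 10176573, 7 members), was close in sequence to the former, with a median coding identity of 91.8% over the 119 pairs between them, but had other calls. Vmn2r46 and Vmn2r47 lay in a LoNRD of 500 kb whose value, -1.88, was the second most negative of 525 autosomal LoNRDs, and these were the 2 protein-coding genes of that domain. In this LoNRD 0.41% of 50-base windows and 1.43% of 140-base windows were single-copy, and 50000 bases were unassembled. Both genes were in a gap of the RT list (9650001 to 9850000). Vmn2r48 to Vmn2r51 lay in a gap of 200 kb between that LoNRD and the next, and Vmn2r52 lay in the latter (-0.65). The 5 members from Vmn2r48 to Vmn2r52 were late (-0.58). Vmn2r30 and Vmn2r47, printed above as identical over 240 bases, thus had NRD values of 0.74 and -1.88. What part the low single-copy share has in these values was not tested. Vmn2r28, which lies alone on chromosome 7 before both clusters, was in a LoNRD (-0.58) and late (-0.80), with 63.8% single-copy 50-base windows.

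The largest cluster was Vmn2r90 to Vmn2r110 on chromosome 17 (17703747 to 20596423, 2893 kb, 22 members). All 22 lay in 1 LoNRD of 5300 kb with a value of -0.75, in which they made up 47.8% of the protein-coding genes. Vmn2r90 at its start was early (0.75), Vmn2r124 to Vmn2r95 were late (-0.82), Vmn2r96 fell in a gap of 150 kb, and Vmn2r97 to Vmn2r110 were late (-0.76). Here 85.9% of 50-base windows were single-copy. The cluster also held 6 of the 7 formyl peptide receptor genes, G protein-coupled receptors of which some are expressed in the vomeronasal organ. Vmn2r65 to Vmn2r76 and Vmn2r77 to Vmn2r79 on chromosome 7 shared 1 LoNRD of 4700 kb and 1 late RT domain (-0.72). The value of that LoNRD, -0.95, was rank 54 of 525 autosomal LoNRDs from the most negative value. The midpoint of Vmn2r77 lay 2405 kb from the nearest RT edge, farther than that of any other member. The clusters with all members in a LoNRD and a late domain were these 2, Vmn2r28, and the single genes Vmn2r118 (-0.65 and -0.43) and Vmn2r120 (-1.02 and -0.90) on chromosome 17.

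**Figure D4:**
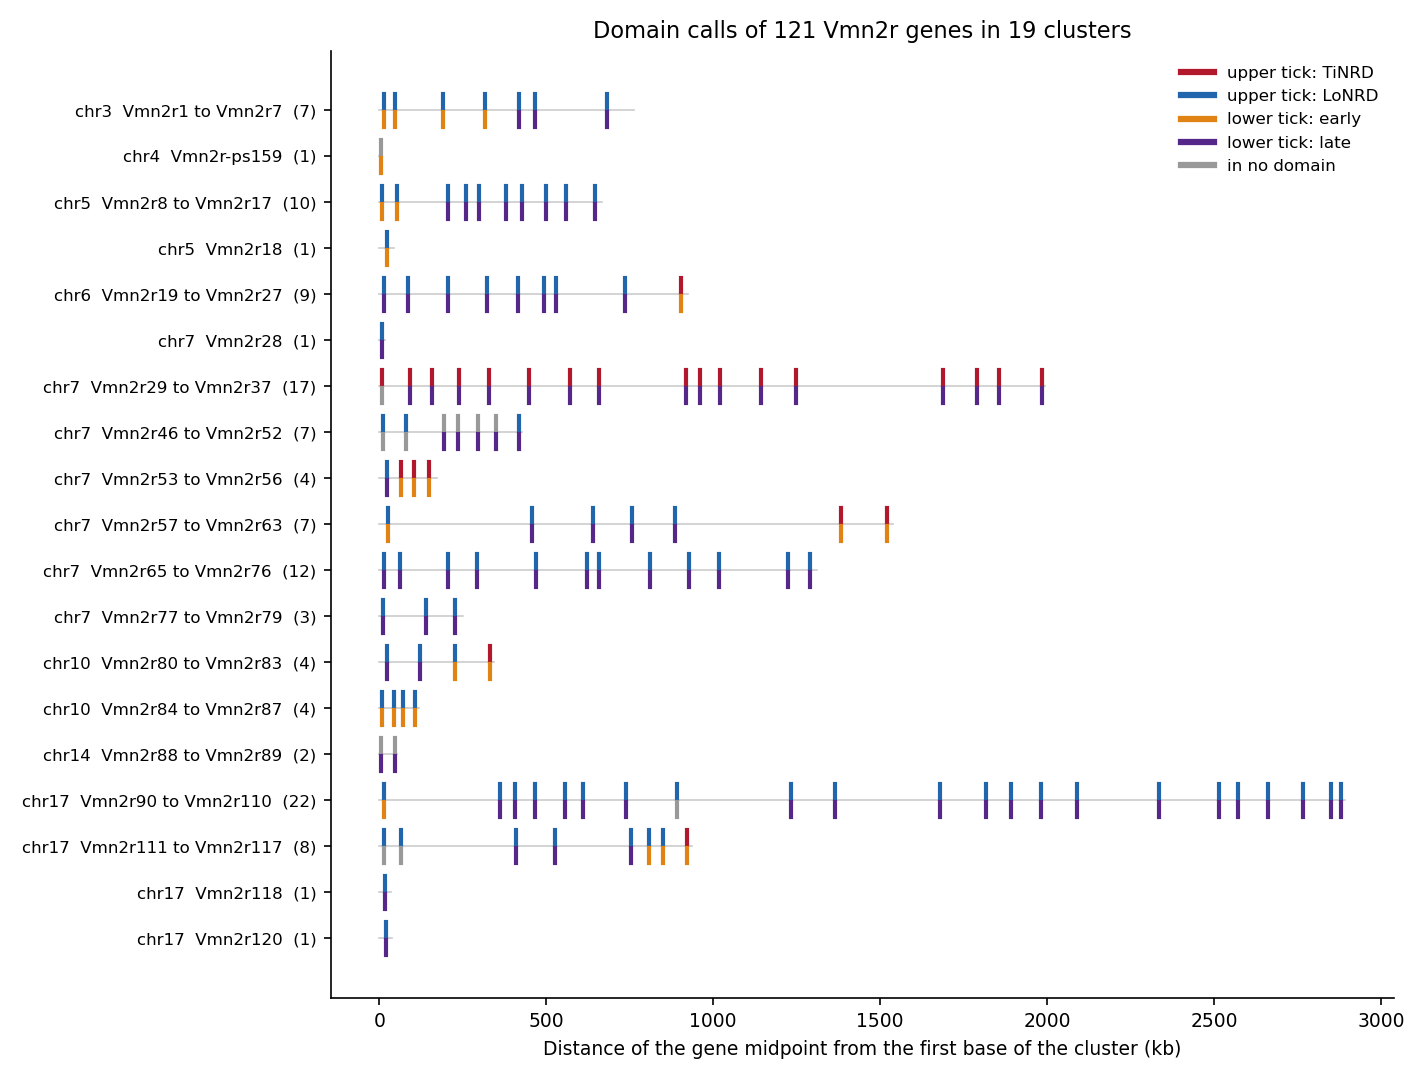
Midpoints of the 121 Vmn2r genes in their 19 clusters, as the distance from the first base of the cluster (kb), with the number of genes in brackets. The upper tick gives the NRD call and the lower tick the RT call, and 8 clusters hold members of opposite RT calls, 5 of which also hold members of opposite NRD calls.

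Domain edges crossed the clusters. In 5 clusters members lay on either side of an edge between a LoNRD and a TiNRD, and in each of these the TiNRD held the last members by position. On chromosome 6, Vmn2r19 to Vmn2r26 lay in a LoNRD (-0.79) that was late (-0.58), and Vmn2r27 lay in a TiNRD (0.94) that was early (1.56). Both lists had their edge at 124200000, inside the gene body of Vmn2r27, whose midpoint was 10.8 kb past it. Vmn2r26 is a receptor known for its part in the detection of peptides that bind major histocompatibility complex (MHC) molecules. On chromosome 7, Vmn2r53 was in a LoNRD (-0.30) and late (-0.58), and Vmn2r54, Vmn2r55 and Vmn2r56 were in a TiNRD (0.45) and early (1.16), with both edges at 12600000 and 41.3 kb between the midpoints of Vmn2r53 and Vmn2r54. Also on chromosome 7, Vmn2r58 to Vmn2r61 were in a LoNRD (-0.29) and late (-0.80), and Vmn2r62 and Vmn2r63 were in a TiNRD (1.12) and early (1.32), with the NRD edge 200 kb after the RT edge. Vmn2r57, the first gene of that cluster, was in the same LoNRD but early (0.67).

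In the other 2 of these clusters the RT edge came 100 kb before the NRD edge, and genes between the edges were in a LoNRD and early. On chromosome 10, Vmn2r80 and Vmn2r81 were in a LoNRD (-0.36) and late (-0.39), Vmn2r82 was in the same LoNRD but early (1.47), and Vmn2r83 was in a TiNRD and early. The value of that TiNRD, 1.64, was the highest of 561 autosomal TiNRDs. On chromosome 17, Vmn2r113, Vmn2r-ps130 and Vmn2r114 were in a LoNRD (-0.50) and late (-0.27), Vmn2r115 and Vmn2r116 were in the same LoNRD but early (1.65), and Vmn2r117 was in a TiNRD (1.32) and early. Vmn2r116 is the receptor of the peptide pheromone ESP1, and its midpoint lay 5.49 kb before the NRD edge. Vmn2r111 and Vmn2r112, at the start of this cluster, lay in the LoNRD and in an RT gap of 900 kb. The edges were set on bins of 100 kb for NRDs and windows of 50 kb for RT. The NRD index was also smoothed over 10 bins before its domains were called. Several midpoints lay closer to the NRD edge than the 100 kb of an NRD bin. They were those of Vmn2r27, Vmn2r53, Vmn2r54, Vmn2r55, Vmn2r82, Vmn2r83, Vmn2r115, Vmn2r116 and Vmn2r117. The midpoint of Vmn2r57 lay 22.3 kb from the other NRD edge inside its cluster.

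**Figure D5:**
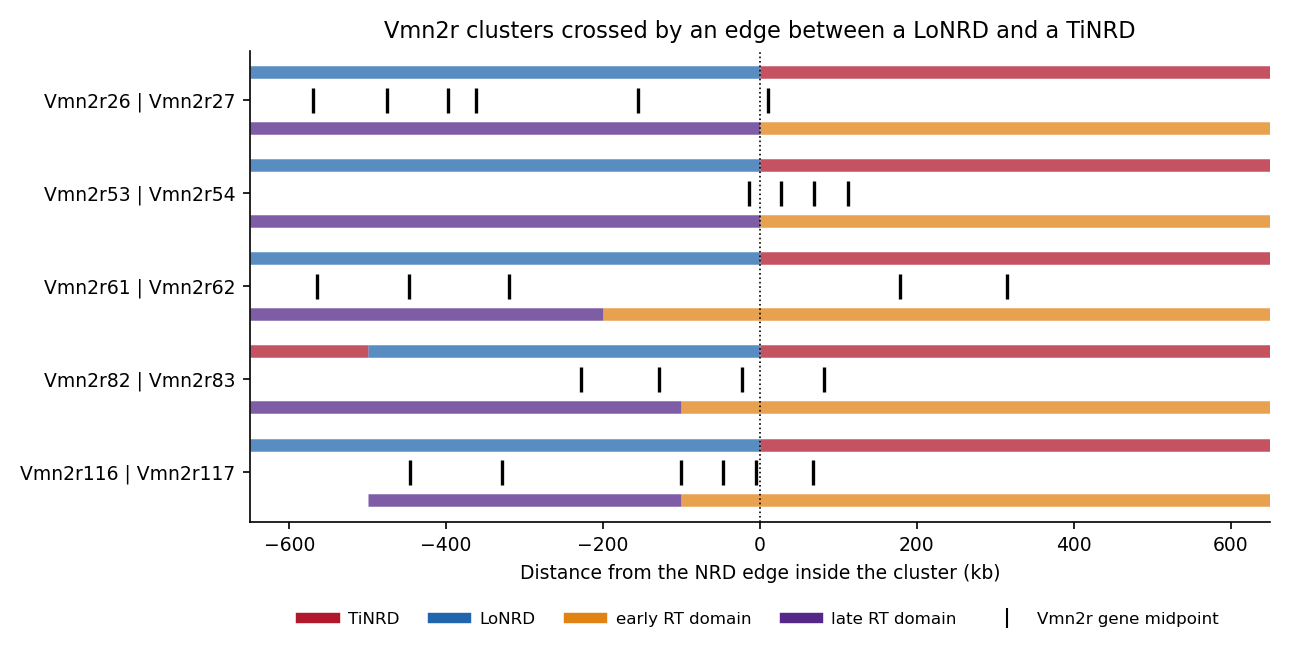
The 5 Vmn2r clusters crossed by an edge between a LoNRD and a TiNRD, aligned at that edge (0 kb), with NRDs above and RT domains below the gene midpoints (black). In all 5 the LoNRD lies before and the TiNRD after the edge, and the RT edge lies 0 to 200 kb before it.

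Counting also edges that no member midpoint precedes, 7 edges between NRDs of opposite kind fell inside the 19 clusters. Those that no member midpoint precedes, at Vmn2r8 and Vmn2r57, ran the other way, from a TiNRD to a LoNRD. All 7 had an edge of the RT list within 200 kb, against 58.7% of 919 such edges on the autosomes. Of 9 edges between RT domains of opposite kind inside clusters, 6 had an NRD edge within 200 kb, against 41.7% of 1177. Over all clusters, the midpoint of 35 members (28.9%) was within 200 kb of the start or end of an NRD, against 17.0% of all genes, and that of 50 members (41.3%) within 200 kb of the start or end of an RT domain, against 24.1%. The median distance to an NRD edge was 418 kb for the members and 898 kb for all genes, and to an RT edge 246 kb and 493 kb. Members of a cluster share edges, so that these counts and distances are not independent. Most members lay in LoNRDs and late domains and most genes in TiNRDs and early domains, and distances within a kind of domain were not compared.

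The 16 members in a LoNRD with early replication came from 8 clusters. Besides Vmn2r57, Vmn2r82, Vmn2r90, Vmn2r115 and Vmn2r116, they were Vmn2r1 to Vmn2r4, Vmn2r8, Vmn2r9, Vmn2r18, and Vmn2r84 to Vmn2r87. Vmn2r1 to Vmn2r7 on chromosome 3, the small family expressed together with other V2Rs, lay 535 to 1204 kb inside a LoNRD of value -0.70. An RT edge at 64450000 divided them, with Vmn2r1 to Vmn2r4 early (0.30) and Vmn2r5 to Vmn2r7 late (-0.95, the most negative RT value of any member). The NRD edge nearest to that RT edge was 850 kb away. On chromosome 5, Vmn2r8 and Vmn2r9 were early (1.16) and Vmn2r10 to Vmn2r17 late (-0.69) within a LoNRD of 900 kb (-0.47). That LoNRD held 12 protein-coding genes, 10 of them members. The midpoint of Vmn2r8 lay 0.35 kb inside the LoNRD, closer to an NRD edge than that of any other member. Vmn2r18, the only member of its cluster on chromosome 5, was in a LoNRD of 500 kb (-0.23) and early (0.55). Vmn2r84 to Vmn2r87 on chromosome 10 were all in a LoNRD (-0.60) and all early (0.68). Their coding sequences were close to those of Vmn2r8 to Vmn2r17, with a median identity of 86.2% over 40 pairs, although the chromosomes differ. The single-copy share of these 16 members was 52.7% to 97.1% (median 82.0%), and 0 of them were under 50%.

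The members in no NRD, besides Vmn2r48 to Vmn2r51, were Vmn2r-ps159, Vmn2r88 and Vmn2r89. Vmn2r-ps159 on chromosome 4 lay after the last NRD of the chromosome and was early (1.35). Vmn2r88, a receptor known to respond to haemoglobin, and Vmn2r89 on chromosome 14 lay in a gap of 100 kb between TiNRDs of 0.34 and 0.67, and were late (-0.49). The closest relative of Vmn2r88 was Vmn2r-ps159 (93.9% identity), on another chromosome, while Vmn2r89 had a coding sequence of 1521 bases and 56.8% identity to Vmn2r88.

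In A/T content the windows with members in TiNRDs were closer to all LoNRD windows than to all TiNRD windows. Of the 25 members in TiNRDs, 17 came from the cluster Vmn2r29 to Vmn2r37, so that many of these windows belong to 1 domain. The A/T content of the clusters had a median of 61.7%, and 61.8% outside soft-masked repeats. The 75 windows of 100 kb with the midpoint of a member in a LoNRD had a median A/T content of 61.7%, against 61.4% over all LoNRD windows. The 20 windows with the midpoint of a member in a TiNRD had 61.4% (quartiles 60.1% and 61.9%), while all TiNRD windows had 55.6% (quartiles 53.3% and 57.4%). In gene bodies the median A/T content was 64.1% for the 16 members with a TiNRD and a late call, all from Vmn2r29 to Vmn2r37. It was 60.9% (58.2% to 63.9%) for the 8 members with a TiNRD and an early call. Repeats covered a median of 54.2% of the windows with members in TiNRDs and 52.3% of those in LoNRDs, against 27.4% and 38.0% over all windows of either kind. The 150 bases before the annotated start of a member had a median A/T content of 62.0%, against 43.3% over all genes. They held a median of 0 CG dinucleotides against 6. The letters TATAAA, on either strand, were found there for 14 of 121 members (11.6%) and for 7.28% of all genes. In LoNRDs the shares were alike, with 13.5% of the members and 13.4% of all genes.

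Other genes of the V2R system were then looked up by the same rule. All 13 genes for signalling and identity of V2R neurons lay in TiNRDs, as did 78.6% of all protein-coding genes, from Calr4, a chaperone (0.23), to the transcription factor gene Tfap2e (1.29), with Gnao1 at 0.98, Trpc2, Omp and Gng8 at 0.89, Bcl11b at 1.22, B2m at 0.51, Plcb2 at 0.65, Ano1 at 1.05 and Kirrel2 at 1.11. Of these 13, 11 were early (84.6%, against 75.3% of all genes), and Ano2 (TiNRD 0.94, RT -0.73) and Kirrel3 (TiNRD 0.61, RT -1.01) were late. Of the 9 H2-Mv genes, MHC class Ib genes expressed in V2R neurons, 7 were in TiNRDs (77.8%, close to the 78.6% of all genes), with H2-M10.1, H2-M10.2 and H2-M10.3 at 1.31 and H2-M1, H2-M9, H2-M10.5 and H2-M10.6 at 0.33, and H2-M10.4 and H2-M11 lay in no NRD. Of the 9 H2-Mv genes, 6 were early (66.7%, against 75.3% of all genes) and 0 late. All 15 Esp genes, which code for exocrine gland peptides, lay in 1 LoNRD (-0.82), while 20.3% of all genes lay in LoNRDs. Of the 15, 9 (60.0%, against 21.4% of all genes) were late (-0.92) and 5, Esp1 among them, early (0.16). The 22 Mup genes code for the major urinary proteins that V2R neurons detect, and 20 lay in TiNRDs (90.9%, against 78.6% of all genes). Of these 20, 17 were late, so that 77.3% of the Mup genes were in a TiNRD and late, against 7.49% of all genes. The Mup array on chromosome 4 had 25.7% single-copy 50-base windows and the Esp array on chromosome 17 had 78.4%. All 7 formyl peptide receptor genes lay in the LoNRD of Vmn2r90 to Vmn2r110, with Fpr1 and Fpr2 early and Fpr3, Fpr-rs3, Fpr-rs4, Fpr-rs6 and Fpr-rs7 late. Late RT domains thus held 71.4% of these 7 genes, against 21.4% of all genes.

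Among 18 other class C receptor genes, 5 were in LoNRDs, as were 20.3% of all genes. The other 13 were in TiNRDs and early, as were 69.4% of all genes. They were the taste receptor genes Tas1r1, Tas1r2 and Tas1r3 (1.28 to 1.29), the GABA receptor genes Gabbr1 and Gabbr2, the glutamate receptor genes Grm2, Grm4 and Grm6, the calcium-sensing receptor gene Casr (0.19), and Gprc5a, Gprc5b, Gprc5c and Gprc5d. The glutamate receptor genes Grm3, Grm5, Grm7 and Grm8 were in LoNRDs (-1.11 to -0.61) and late, as were 13.5% of all genes. Gprc6a was in a LoNRD (-0.82) and no RT domain. Grm5 lay in the LoNRD of Vmn2r65 to Vmn2r79. Of other chemoreceptor families, LoNRDs held 63.0% of 208 Vmn1r genes, 79.6% of 1128 Olfr genes, 80.0% of 35 Tas2r genes and 0 of 15 Taar genes, beside 73.6% of the Vmn2r genes. Late RT domains held 77.9% of the Vmn1r, 70.2% of the Olfr and 91.4% of the Tas2r genes, beside 74.4% of the Vmn2r genes, whereas all 15 Taar genes were in TiNRDs and early. TiNRDs with late replication held 13.2% of the Vmn2r genes, 24.5% of the Vmn1r genes, 4.61% of the Olfr genes, 11.4% of the Tas2r genes and 0 of the Taar genes, against 7.49% of all genes.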

How the data were processed

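The authors trimmed the reads (cutadapt 4.3), aligned them to mm10 (Bowtie2 2.5.1), marked duplicates (Picard) and filtered for proper pairs and mapping quality (SAMtools). NRDs were made by the authors from the relative excess of fragments of 140 to 250 bp over those of 50 to 140 bp in 100 kb bins, as a smoothed z-score, with the domain caller of HOMER. The deposited NRD value is a score. RT domains were made by the authors from 50 kb windows as the quantile-normalized log2 ratio of fractions S1 plus S2 over S3 plus S4, with the same caller. The deposited RT value is on the log2 scale. How a domain value summarises its bins, and which RT replicates entered the list, is not given in the sources used here. The lists carry neither replicates nor counts of reads, which leaves the depth per domain unknown, and no interval or test between samples was computed. The reference genome is of another strain than R1 cells, and differences in copy number between them were not examined.

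Genes came from GENCODE M21, the annotation of GRCm38, whose chromosome lengths matched the end of the last RT domain on 18 of 19 autosomes, and all domains lay inside the chromosomes. Of 121 members, 120 had a protein-coding entry in RefSeq. The member on chromosome X was left out. Each gene was given the domain that holds its midpoint. An NRD or RT edge is the start or end of a listed domain, whatever lies outside it. Coding sequences (the longest per gene) were read from the genome and aligned end to end with edlib 1.3.9.post1, and identity is the share of identical positions of the alignment. Single-copy windows were counted for cluster spans, genes, domains with members and every 50th autosomal window of 100 kb with at least 50% of its bases assembled. The counting of windows and the assignment of genes were tested on simulated data. Calculations used Python 3.11.15, numpy 2.4.6, pandas 2.3.3, numba 0.67.0 and matplotlib 3.10.9.

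The members, gene lists and alternatives were chosen with earlier results of these data known. Named singly were members alone in their cluster, members whose calls do not correspond (beyond 12, the 6 nearest to an edge), members in no domain (beyond 12, counts per cluster), the neighbours of each edge inside a cluster, the first and last members of the domains with the most extreme values, and the genes of the fixed lists, of which 1 is not reported here. The members in no domain, the remaining members in a LoNRD with early replication, Vmn2r46 and Vmn2r47 beside Vmn2r30, and the TATAAA letters were named after their values were seen. The alternatives were the annotated start or most of the gene length in place of the midpoint, domains of at least 500 kb, chromosome X or pseudogenes added, clusters counted as units, the largest cluster left out, neighbouring domains merged, other gaps between clusters, sequence outside repeats, and longer windows. Leaving out members with little single-copy sequence, and leaving out the cluster Vmn2r29 to Vmn2r37, were added after seeing the data.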

Additional observations from a re-analysis of the deposited data

How the results depend on the processing

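The 9 results were recomputed under 54 alternative values, of which 47 stayed within the 95% interval of the reported value (Wilson for shares, order statistics for medians) or, for counts, within 1.5 times of it. These intervals treat genes as independent and only serve as a yardstick. Each cluster was also counted as a unit with the most common call of its members, where a tie of early and late did not count as late. By this rule 63.2% of 19 clusters were late, the median RT value of the clusters was -0.58, and 47.4% were LoNRD and late. Members of opposite RT calls occurred in 8 of these clusters, and in 5 clusters all members were in a LoNRD and late. Without the cluster with the most genes, LoNRDs with late replication held 48.5% of 99 members, so that this share fell below 50% under both alternatives. With the 91 members that had at least 50% single-copy 50-base windows, LoNRDs held 89.0% and LoNRDs with late replication 68.1%, and without the cluster Vmn2r29 to Vmn2r37 these shares were 85.6% and 65.4% of 104 members. The share in late RT domains under these alternatives was 71.4% and 71.2%. The share of members in LoNRDs ranged from 67.7%, without the cluster with the most genes, to 89.0%. The number of clusters was 26 with genes under 250 kb apart and 17 with genes under 1000 kb apart. With 140-base windows the median single-copy share of the clusters was 91.9%. No paired analysis was possible because no result comes from a test and the lists carry no replicate numbers. Each value belongs to a domain. Edges can be placed no more closely than the bins, and the NRD index was also smoothed over 10 bins.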

Other observations

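With the 113 annotated pseudogenes of the family on chromosomes 1 to 19 added to the 121 members, LoNRDs held 68.8% of the 234 genes and late RT domains 69.7%. The 22 NRDs with members differed in length by kind. The 16 LoNRDs with members had a median length of 1150 kb, against 1100 kb over 525 autosomal LoNRDs. The 6 TiNRDs with members had a median of 4100 kb, against 1100 kb over 561 autosomal TiNRDs. A longer domain is more likely to hold any given gene, and these comparisons with all domains did not allow for that. The 15 late RT domains with members had a median of 650 kb, against 1050 kb over 849 autosomal late domains, and 9 of the 15 were under 1000 kb, against 47.2% of all late domains. In 3 LoNRDs Vmn2r genes made up more than 60% of the protein-coding genes: 100% of 2 genes for Vmn2r46 and Vmn2r47, 83.3% of 12 genes for Vmn2r8 to Vmn2r17, and 61.5% of 13 genes for Vmn2r19 to Vmn2r26. On chromosome 6, Vmn2r20, Vmn2r21 and Vmn2r22 had 42.9%, 0.89% and 27.1% single-copy 50-base windows in their gene bodies and lay in a LoNRD that was late. Over that whole LoNRD the share was 62.9%. The closest relative had the same NRD call for 102 of the 121 members and the same RT call for 97. A pair in no domain was counted as the same. For 100 members the closest relative lay in the same cluster, and LoNRDs held 73.6% and late RT domains 74.4% of all members. These counts thus largely follow the clusters, and agreement beyond that was not tested.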
